A study of Mus musculus with 36 samples.

Results

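The cell division genes described here are 39 genes whose products copy DNA or part chromosomes, followed in liver RNA and retina RNA of mice given PBS, DMOG or roxadustat. They were chosen by name, with earlier results of these data known. All 39 were found among the 22558 genes of each of the 2 expression tables. The list holds 15 genes of DNA replication and the step into it, called S phase genes below, and 23 genes of mitosis. Ccnd1, a cyclin of the earlier G1 phase, was counted in neither. Levels are FPKM values, fragments scaled by transcript length and by library size, so levels of different genes can be set side by side.

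A dividing cell licenses its replication origins, unwinds them with the MCM helicase and copies its DNA, and then builds a spindle that parts the chromosomes. Transcripts of replication genes are driven mainly by E2F factors at the start of S phase, whereas those of mitosis genes build up later under DREAM and MuvB complexes that act through the CHR element, often beside CCAAT boxes. In the young liver both hepatocytes and blood precursors divide, while in the retina division ends as neurons and glia mature.

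The libraries came from C57BL/6 mice, with 6 libraries in each of 6 groups: PBS as the control, DMOG (dimethyloxalylglycine, a 2-oxoglutarate analogue that inhibits the HIF prolyl hydroxylases among other enzymes) or roxadustat (an inhibitor of the HIF prolyl hydroxylases), each under a liver and a retina label. The labels give no age, sex, dose, route, time, pooling or genetic change, and do not say whether replicates were separate animals, so p-values measure only the spread between these libraries and the doses of the drugs cannot be matched. The tissue labels went against the transcriptomes. Sag, the arrestin of rods, had a median of 2588 FPKM in the 18 libraries labelled liver and 0.163 FPKM in the 18 labelled retina, whereas Apoa1, an apolipoprotein made by hepatocytes, had 0.278 and 9038 FPKM. Libraries labelled retina are therefore called liver RNA below, and libraries labelled liver are called retina RNA. In liver RNA, DMOG replicate 5 stood apart: Epo, the erythropoietin gene, was listed at 0 against 17.2 to 24.6 FPKM in the other DMOG libraries, and Egln3, a HIF target, was at 8.23 against 46.4 to 72.5 FPKM. For DMOG against PBS in liver RNA, the counts of called members and the phase medians are given with and without it. Other values include it unless stated, among them counts at an unadjusted p and of groups free of overlap.

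Promoter letters differed in share between the mitosis and the S phase genes; whether they go with the expression values was not tested. The RefSeq promoter table of GRCm38.p6, from 250 bases before to 50 bases after each start, held 31 of the 39 members with 33 promoters. Aurkb, Ccna2, Ccnd1, Ccne2, Gins2, Kif20a, Mcm4 and Tpx2 were not matched. The CHR letters TTTGAA, searched on both strands, were in 15 of 20 mitosis promoters (75%), all except those of Birc5, Bub1, Ccnb1, Cenpe and Nusap1, and in 1 of 13 S phase promoters (7.7%), that of Mcm2, against 17.9% of all 32851 promoters. E2F letters (TTTGGCGC, TTTCGCGC, TTTCCCGC or TTTGCCGC on either strand, where matches may overlap) were in 6 S phase promoters (46.2%), those of Cdc6, Cdt1, Mcm3, Mcm5, Mcm6 and Mcm7, and in 1 mitosis promoter (5%), that of Cdk1, against 2.3% of all. CCAAT was in 90% of the mitosis and 69.2% of the S phase promoters, against 37.4% of all. A match describes letters in the window and is no measured binding site. Printed below are the 250 bases before the start, 5′ to 3′ along the gene, with CHR, CCAAT and E2F letters of either strand in capitals. Plk1 and Cdt1 are shown because they were called between groups, Mki67, Cdk1 and Mcm2 because they are markers named throughout, and Mcm6 because of its values, after these were seen.
Plk1 (chr7:122159185-122159434, plus strand): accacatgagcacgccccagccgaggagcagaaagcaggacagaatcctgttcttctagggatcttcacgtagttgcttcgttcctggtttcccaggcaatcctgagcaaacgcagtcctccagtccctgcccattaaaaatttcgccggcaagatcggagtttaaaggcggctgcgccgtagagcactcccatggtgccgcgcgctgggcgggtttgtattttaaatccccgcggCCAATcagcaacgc
Mki67 (chr7:135716380-135716629, minus strand): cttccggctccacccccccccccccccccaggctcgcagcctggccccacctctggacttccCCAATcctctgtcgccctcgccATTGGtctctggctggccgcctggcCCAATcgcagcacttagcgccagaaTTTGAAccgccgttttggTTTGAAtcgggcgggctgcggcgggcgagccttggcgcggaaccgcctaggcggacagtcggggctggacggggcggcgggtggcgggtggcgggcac
Cdk1 (chr10:69352913-69353162, minus strand): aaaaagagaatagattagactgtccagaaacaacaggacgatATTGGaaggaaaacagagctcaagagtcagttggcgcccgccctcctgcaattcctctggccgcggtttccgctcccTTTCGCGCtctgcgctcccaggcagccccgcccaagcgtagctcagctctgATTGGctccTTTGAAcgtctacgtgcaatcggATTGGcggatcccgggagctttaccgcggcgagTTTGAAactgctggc
Cdt1 (chr8:122567765-122568014, plus strand): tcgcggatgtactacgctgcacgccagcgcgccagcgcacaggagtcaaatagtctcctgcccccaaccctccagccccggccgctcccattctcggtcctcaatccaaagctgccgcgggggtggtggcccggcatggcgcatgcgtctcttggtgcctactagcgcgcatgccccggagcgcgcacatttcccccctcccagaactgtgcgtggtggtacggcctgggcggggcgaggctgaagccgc
Mcm6 (chr1:128359706-128359955, minus strand): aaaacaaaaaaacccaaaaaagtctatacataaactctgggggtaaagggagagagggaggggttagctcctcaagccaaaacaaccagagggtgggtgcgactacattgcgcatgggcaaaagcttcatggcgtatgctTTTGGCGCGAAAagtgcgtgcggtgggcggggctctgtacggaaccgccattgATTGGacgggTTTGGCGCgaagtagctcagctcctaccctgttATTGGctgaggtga
Mcm2 (chr6:88898781-88899030, minus strand): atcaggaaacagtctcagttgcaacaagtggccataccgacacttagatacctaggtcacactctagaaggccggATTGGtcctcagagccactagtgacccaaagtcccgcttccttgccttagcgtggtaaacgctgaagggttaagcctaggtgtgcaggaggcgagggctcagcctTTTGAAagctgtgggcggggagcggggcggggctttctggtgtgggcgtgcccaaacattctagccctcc
Mki67 and Cdk1 each show TTTGAA shortly after CCAAT letters, and Mcm6 shows E2F letters of opposite strands that overlap. The CHR letters of Plk1 and the E2F letters of Cdt1 begin 31 and 33 bases into the transcript and so lie outside the printed stretch.

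All 39 members stood higher in liver RNA than in retina RNA in the PBS groups. The median FPKM in liver RNA over that in retina RNA was 10.1 at the median of the 23 mitosis genes (1.17 to 46.9) and 4.05 at that of the 15 S phase genes (1.07 to 23.3), while over 11092 genes tested in both tables it was 0.514. The tables may have been normalized separately, so the levels are a description with no test. Mki67, the Ki-67 protein that coats mitotic chromosomes and marks cycling cells, had the widest ratio, with medians of 26.2 FPKM in liver RNA and 0.558 FPKM in retina RNA. Pcna, the sliding clamp of replication that also serves DNA repair, had the narrowest and was the most abundant member in both, at 79.1 and 73.7 FPKM. Ccne2, an E cyclin of the G1 to S step (3.10 and 2.73 FPKM), and Bub1b, which holds the spindle checkpoint (7.89 and 6.75 FPKM), also lay close together.

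The name of genes of growing tissue matched the levels in liver RNA better than those in retina RNA. The mitosis genes had a median level of 11.1 FPKM in liver RNA and 1.03 FPKM in retina RNA, and the S phase genes 16.8 and 2.73 FPKM. In retina RNA Cdc6, which loads the helicase (median 0.160 FPKM with PBS), Bub1, a checkpoint kinase (0.416 FPKM), and Cenpf, a kinetochore protein (0.231 FPKM), missed the mean of 0.5 FPKM that a test required. This left 36 members tested in retina RNA, whereas all 39 were tested in liver RNA. Here, as in any bulk sample, fewer dividing cells and less RNA per cell cannot be told apart.

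**Figure D1:**
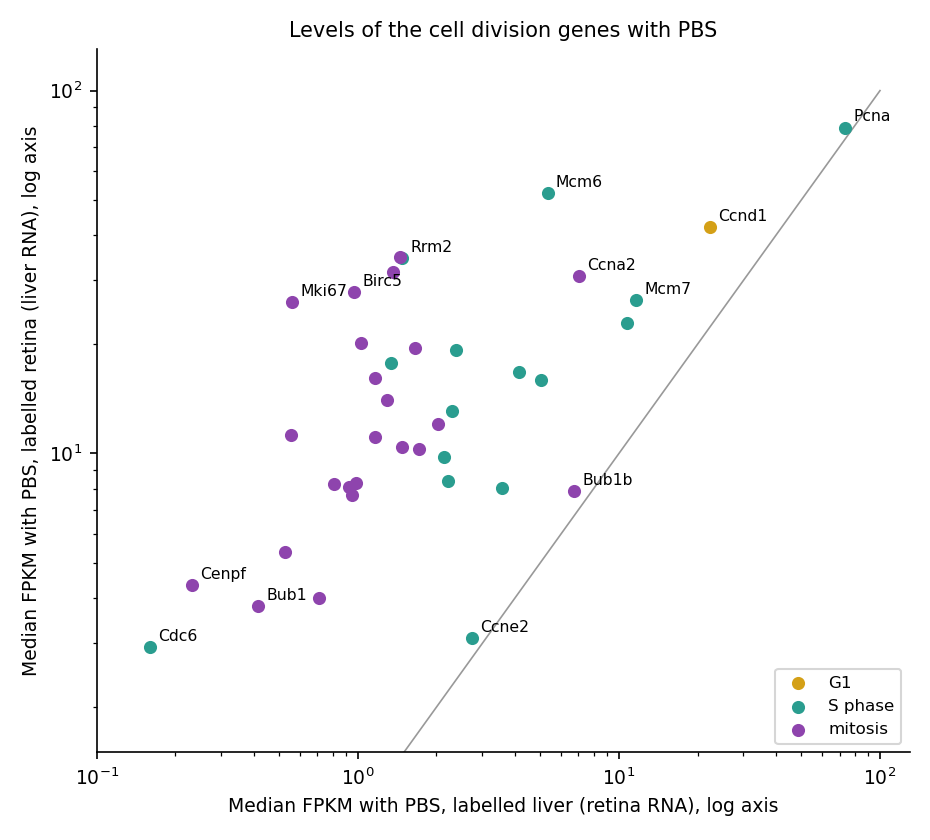
Median FPKM of each of the 39 members in the PBS groups (6 libraries each), with libraries labelled liver (retina RNA) on the horizontal and libraries labelled retina (liver RNA) on the vertical axis, both log axes; colours mark G1, S phase and mitosis genes and the line marks equal levels. Mki67 (0.558 and 26.2 FPKM) lies farthest above the line, and Pcna, Ccne2 and Bub1b lie near it.

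In liver RNA, DMOG against PBS called none of the 39 members at an adjusted p under 0.05 (limma, Benjamini-Hochberg over all 12657 genes tested), where 20% of all genes tested were called, 8.26% higher and 11.7% lower. At an unadjusted p under 0.05, 4 members were higher (Ccne2, Mcm6, Ccnb1 and Prc1) and 0 lower, against 16% and 18.5% of all genes. No member's groups were free of overlap with DMOG replicate 5 included, as was so for 1.33% of all genes on the higher and 1.45% on the lower side. The log2 fold changes, computed on FPKM + 0.5, are given by phase: all 23 mitosis genes were above 0 (median 0.18, range 0.03 to 0.37) and 8 of 15 S phase genes were (median 0.02). Over all genes 52.2% were above 0 and the median was 0.01. The 23 genes were measured in the same libraries, so their values are not independent, and single libraries moved their medians. Without DMOG replicate 3 the medians were 0.11 for mitosis (19 of 23 above 0) and -0.04 for S phase genes (5 of 15), and without DMOG replicate 5 they were 0.25 (23 of 23) and 0.06 (10 of 15). Of the erythroid and neutrophil markers described below, 10 of 10 (median 0.23) and 8 of 8 (median 0.26) were above 0 too, and their part in the mitosis values was not tested. With each library rescaled to the same FPKM total, 17 of the 23 were above 0 (median 0.09, against -0.07 over all genes), and the share of called genes that were higher went from 41.4% to 17.8%.

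Of the genes that drive entry into mitosis, Ccnb1, cyclin B1, was at 12.9, 16.1 and 22.01 FPKM with PBS (lowest, median and highest) and at 16.5, 21.4 and 26.6 FPKM with DMOG. All 6 DMOG libraries exceeded the PBS mean, but the groups overlapped, and the log2 fold change was 0.37 ± 0.13 (SE, n = 6 per group; limma adjusted p 0.0578). Cdk1, its kinase partner, was at 11.8, 14.01 and 18.5 FPKM with PBS and 13.5, 17.2 and 22.7 FPKM with DMOG (0.24 ± 0.13, limma adjusted p 0.194). Prc1, which bundles the microtubules of the central spindle, had the lowest adjusted p of the members: 9.61, 12.02 and 14.6 FPKM with PBS and 12.5, 14.8 and 19.1 FPKM with DMOG (0.31 ± 0.11, limma adjusted p 0.0548). In each of these genes the DMOG values began within the PBS range.

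The markers of cycling cells had smaller values. Mki67 was at 20.4, 26.2 and 31.01 FPKM with PBS and 21.03, 27.1 and 37.6 FPKM with DMOG (0.12 ± 0.15, limma adjusted p 0.593). Top2a, the topoisomerase that untangles sister chromatids, was at 24.1, 31.7 and 39.3 against 25.6, 36.9 and 48.3 FPKM (0.20 ± 0.15, limma adjusted p 0.339). The groups overlapped in both. The spindle and cytokinesis genes Kif11, Kif20a, Kif23, Tpx2, Nusap1 and Prc1 had log2 fold changes of 0.03 to 0.31, the chromosomal passenger genes Aurkb, Birc5 and Cdca8, which correct faulty attachments, 0.05 to 0.24, and Cdc20 and Ube2c, which launch anaphase, 0.07 to 0.25.

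The replication genes shared no direction. Mcm6, a subunit of the helicase, was at 42.5, 52.3 and 62.4 FPKM with PBS and 49.6, 65.8 and 72.7 FPKM with DMOG (0.29 ± 0.11, limma adjusted p 0.065). Mcm2, of the same complex, was at 13.3, 16.8 and 20.1 against 13.2, 15.7 and 17.2 FPKM (-0.11 ± 0.10). The lowest DMOG value of Mcm6 was that of replicate 5, the library that stood apart. Among the E cyclins, which open S phase with their kinase, Ccne2 was at 2.30, 3.10 and 4.37 against 3.49, 3.95 and 5.94 FPKM (0.40 ± 0.14, limma adjusted p 0.0549). Ccne1 lay on the other side of 0, at 6.91, 8.42 and 12.4 against 5.58, 8.43 and 9.46 FPKM (-0.16 ± 0.18). Pcna was at 64.7, 79.1 and 92.2 against 69.8, 80.9 and 97.7 FPKM (0.04 ± 0.11), and Ccnd1 at 35.1, 42.1 and 52.8 against 34.2, 40.1 and 51.1 FPKM (-0.03 ± 0.12), and their groups overlapped. The nucleotide supply genes Rrm1, Rrm2 and Tyms had log2 fold changes of -0.08 to 0.23.

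Single libraries decided whether members were called with DMOG in liver RNA. Without DMOG replicate 5, the log2 fold changes of Aurkb (0.33), Ccnb1 (0.44), Ccne2 (0.46), Mcm6 (0.35) and Prc1 (0.36) were called, with limma adjusted p from 0.0103 to 0.0251. The share of all genes called higher was then 17.3%, so the 5 of 39 members were below the background. Leaving out PBS replicate 2 called Ccnb1, Ccne2 and Prc1, leaving out PBS replicate 4 called Ccne2, Mcm6 and Prc1, and leaving out PBS replicate 5 called Prc1, where 7.42%, 6.68% and 7.76% of all genes were called higher.

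With roxadustat in liver RNA, Cdt1 fell, the only 1 of 39 members called against PBS, where 4.19% of all genes tested were called (2.16% higher, 2.02% lower). Cdt1 brings the MCM helicase to replication origins and is destroyed as S phase begins. It was at 11.9, 13.1 and 15.3 FPKM with PBS, 9.87, 11.8 and 14.03 FPKM under DMOG and 7.55, 10.03 and 12.2 FPKM under roxadustat. All 6 roxadustat libraries lay below the PBS mean, and 1 of them lay above the lowest PBS library. The log2 fold change was -0.43 ± 0.12 (SE, n = 6 per group; limma adjusted p 0.0403). The call was lost in 8 of 18 fits that left out a library, those without PBS replicate 2, 3, 4 or 6 or roxadustat replicate 1, 4, 5 or 6 (limma adjusted p up to 0.0925), and with no filter on low values (limma adjusted p 0.0552). Cdt1 overlaps the gene model Gm20388 on the same strand, so reads of the overlap could have been counted for either.

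The other replication genes had small values in this comparison, mostly below 0. Of the 15 S phase genes 10 were below 0 (median -0.08), among them 6 of the 7 helicase genes, Mcm2 to Mcm7 and Gins2 (-0.18 to 0.00). Mcm2 was at 12.7, 14.8 and 17.7 FPKM with roxadustat (-0.18 ± 0.10, limma adjusted p 0.336), and Ccne1 at 4.63, 7.85 and 9.70 FPKM (-0.28 ± 0.18, limma adjusted p 0.435). Cdc6, which acts beside Cdt1, was at 2.12, 2.93 and 3.79 FPKM with PBS and 1.75, 2.39 and 2.98 FPKM with roxadustat (-0.25 ± 0.13, limma adjusted p 0.319). Pcna (68.1, 80.1 and 92.4 FPKM; 0.06 ± 0.11) and Ccnd1 (32.6, 44.03 and 45.3 FPKM; -0.04 ± 0.12) had values spread over those of PBS.

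The mitosis genes lay on the other side of 0, although none passed the test. All 23 were above 0 with roxadustat (median 0.18, range 0.04 to 0.38), against 49.8% of all genes. With equal FPKM totals 21 of 23 were (median 0.14, against -0.04 over all genes), and the share of called genes that were higher went from 51.7% to 31.4%. At an unadjusted p under 0.05 limma had 4 members higher (Ccnb1, Aurka, Kif23 and Prc1, all of mitosis) and 1 lower (Cdt1), against 8.22% and 10.7% of all genes. No member's groups were free of overlap, as for 2.76% of all genes on the higher and 2.73% on the lower side.

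Ccnb1 was at 17.2, 20.4 and 23.4 FPKM with roxadustat, 6 of 6 libraries above the PBS mean (0.30 ± 0.13, limma adjusted p 0.225). Kif23, a kinesin of the midbody and the member with the highest log2 fold change, was at 3.55, 5.34 and 6.63 FPKM with PBS and 4.89, 7.17 and 8.03 FPKM with roxadustat (0.38 ± 0.16, limma adjusted p 0.189). Cdk1 was at 14.2, 17.5 and 19.7 FPKM (0.24 ± 0.13), Top2a at 30.2, 33.7 and 38.6 FPKM (0.14 ± 0.15) and Mki67 at 20.6, 26.1 and 37.9 FPKM (0.04 ± 0.15). All overlapped their PBS values. The DMOG and roxadustat comparisons share the PBS libraries, so their values are set side by side and not related to each other.

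**Figure D2:**
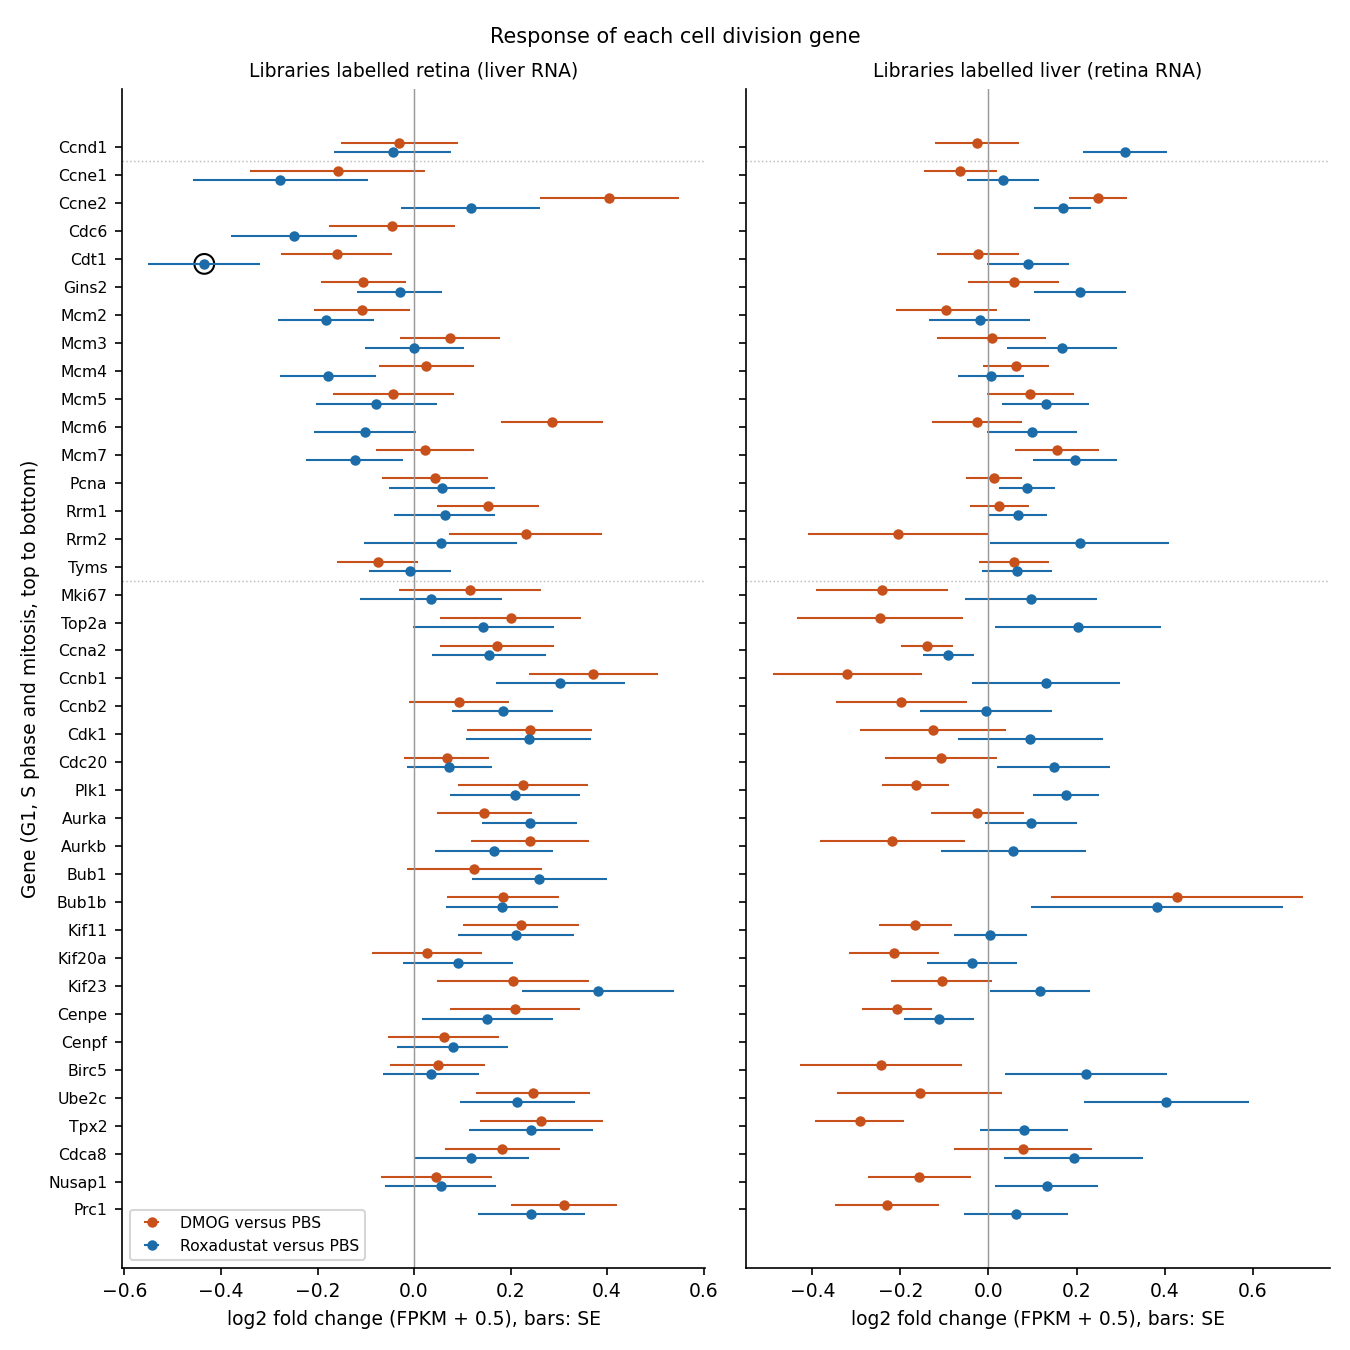
Log2 fold change against PBS, on FPKM + 0.5, with its SE for each of the 39 members (6 libraries per group) in libraries labelled retina (liver RNA, left) and labelled liver (retina RNA, right), DMOG and roxadustat in separate colours; dotted lines part G1, S phase and mitosis genes and a ring marks an adjusted p under 0.05. In liver RNA all 23 mitosis genes lie right of 0 with both drugs and Cdt1 alone is ringed, and in retina RNA 19 of 21 mitosis genes lie left of 0 with DMOG.

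The balance between the phases was read within each library, as the mean log2(FPKM + 0.5) of the 15 S phase genes minus that of the 23 mitosis genes, a difference from which the scale of a library nearly cancels. In liver RNA this balance was 0.346, 0.413 and 0.453 in the PBS libraries (lowest, median and highest), 0.163, 0.285 and 0.339 under DMOG and -0.058, 0.149 and 0.316 under roxadustat. Every DMOG and every roxadustat library lay below all 6 PBS libraries, with a narrow margin between DMOG replicate 6 (0.339) and PBS replicate 1 (0.346). The mean was 0.405 ± 0.0461 with PBS, 0.267 ± 0.0618 with DMOG and 0.140 ± 0.131 with roxadustat (SD, n = 6 each), a difference from PBS of -0.138 and -0.266. The balance is a score over members chosen by name, with earlier results of these data known, so no p is given.

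Neither phase moved beyond its own spread. The mean of the mitosis genes was 3.62 ± 0.22 with PBS, 3.79 ± 0.21 with DMOG and 3.79 ± 0.13 with roxadustat (log2 units, SD, n = 6), and that of the S phase genes 4.02 ± 0.21, 4.06 ± 0.16 and 3.93 ± 0.16. The groups overlapped in both means. Rescaling a library cannot move this balance by much, so only versions that change the genes or the pseudocount bear on it. With a pseudocount of 0.1 or 1, only members with a mean of at least 5 FPKM, no E cyclins, or other genes, the difference from PBS was -0.166 to -0.127 for DMOG and -0.277 to -0.186 for roxadustat, and both drugs lay below all PBS libraries. The version without any of the 39 members, with the other S phase and mitosis genes described below, gave 0.116 to 0.195 in the PBS libraries, -0.072 to 0.114 under DMOG and -0.118 to 0.041 under roxadustat, again with a narrow margin for DMOG. DMOG replicate 5, in which Epo was listed at 0, had a balance of 0.299, and the DMOG difference was -0.144 without it and -0.117 without replicate 3.

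The groups differed in how many libraries had more Xist than Y-linked RNA. In liver RNA, Xist, the RNA of the inactive X chromosome, exceeded the summed Y-linked genes in 3 of 6 PBS, 4 of 6 DMOG and 1 of 6 roxadustat libraries. Among these the balance was 0.346 to 0.428 in PBS libraries, 0.163 to 0.339 in DMOG libraries and 0.137 in the roxadustat library. Among the others it was 0.358 to 0.453, 0.297 to 0.299 and -0.058 to 0.316. With 1 to 5 libraries of a kind in a group no test was made, and its part in the balance was not tested.

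**Figure D3:**
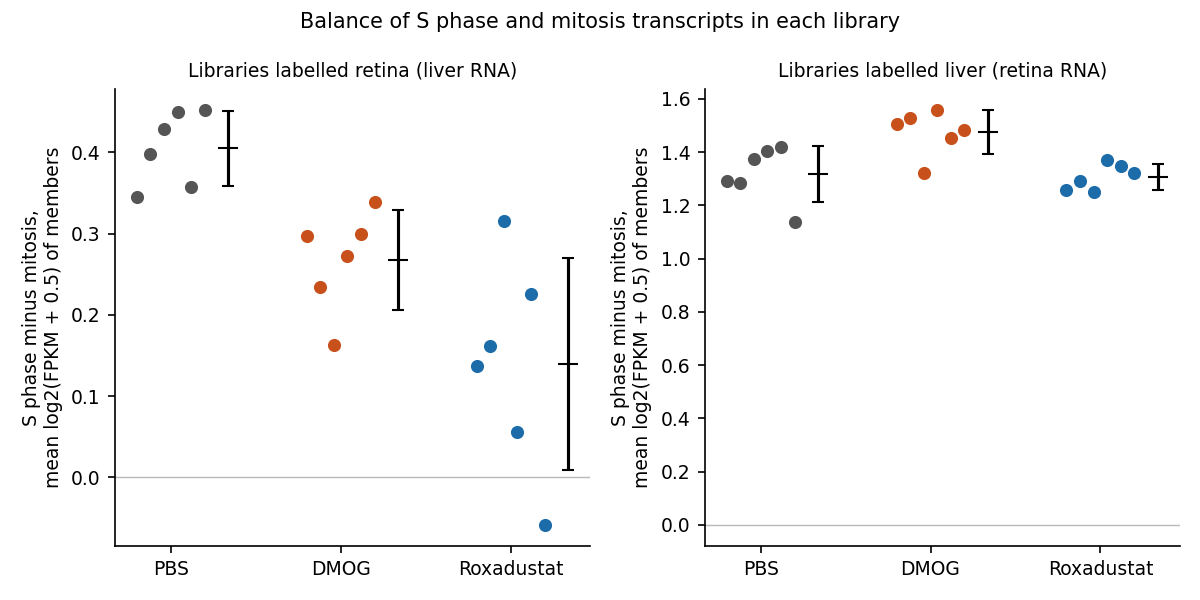
Mean log2(FPKM + 0.5) of the 15 S phase genes minus that of the 23 mitosis genes in each library (points) by treatment, with the mean ± SD of 6 libraries (bars), in libraries labelled retina (liver RNA, left) and labelled liver (retina RNA, right); the vertical axes differ. In liver RNA the DMOG (0.163 to 0.339) and roxadustat libraries (-0.058 to 0.316) lie below all PBS libraries (0.346 to 0.453), and in retina RNA 5 of 6 DMOG libraries lie above all PBS libraries.

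Roxadustat against DMOG in liver RNA called 0 of 39 members, where 2.99% of all genes were called (1.86% higher, 1.14% lower). At an unadjusted p under 0.05 limma had 0 members higher and 2 lower, Mcm6 and Cdt1, against 9.77% and 8.15% of all genes. Mcm6 was at 43.1, 46.6 and 56.6 FPKM with roxadustat, against 49.6, 65.8 and 72.7 FPKM with DMOG (-0.39 ± 0.11, limma adjusted p 0.0523), and was called lower when DMOG replicate 5, PBS replicate 3 or roxadustat replicate 3 was left out. The S phase genes had a median of -0.12, with 3 of 15 above 0, and the mitosis genes -0.01, with 8 of 23 above 0, against 45.6% of all genes. With equal FPKM totals 16 of the 23 were above 0, and the share of called genes that were higher went from 62% to 82.6%. No member's groups were free of overlap, as for 0.608% of all genes on the higher and 0.521% on the lower side. The interval of 2 SE around the difference between the drugs was -0.34 to 0.20 for Ccnb1 and -0.51 to -0.04 for Cdt1.

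**Figure D4:**
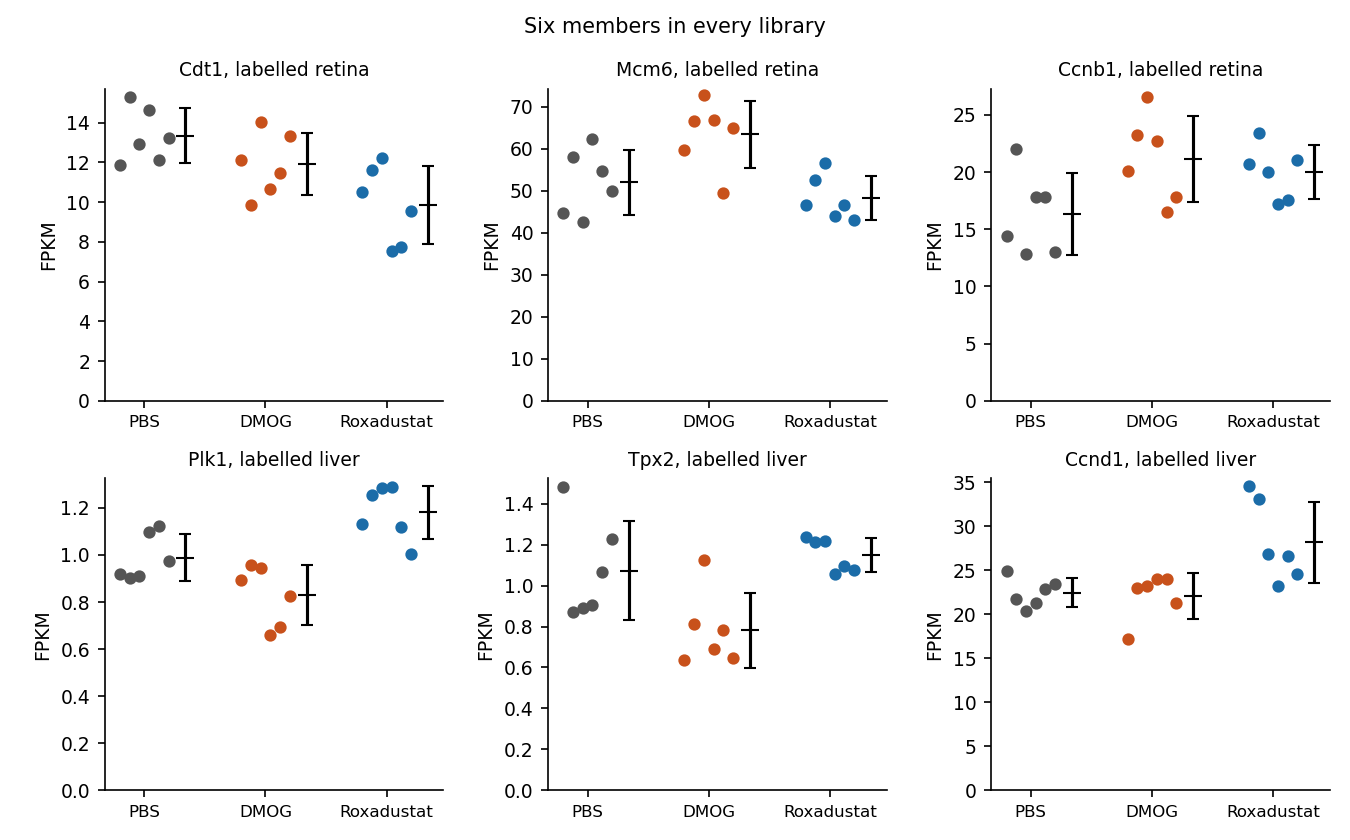
FPKM of Cdt1, Mcm6 and Ccnb1 in libraries labelled retina (liver RNA, top) and of Plk1, Tpx2 and Ccnd1 in libraries labelled liver (retina RNA, bottom), each point 1 library and each bar the mean ± SD of 6. Cdt1 reaches its lowest values with roxadustat (7.55 to 12.2 FPKM), and Plk1 with roxadustat (1.01 to 1.29 FPKM) lies above all its DMOG values (0.660 to 0.956 FPKM).

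In retina RNA, DMOG against PBS called 0 of the 36 members tested, where 1.07% of all 13779 genes were called (0.37% higher, 0.697% lower). At an unadjusted p under 0.05 limma had 1 member higher (Ccne2) and 5 lower (Tpx2, Cenpe, Ccna2, Plk1 and Kif20a), against 6.5% and 7.23% of all genes. No member's groups were free of overlap, as for 0.523% of all genes on the higher and 0.639% on the lower side. Of the 21 mitosis genes 19 were below 0 (median -0.17), all except Bub1b (0.43 ± 0.29) and Cdca8 (0.08 ± 0.16). Of the 14 S phase genes 9 were above 0 (median 0.02), as were 54.3% of all genes.

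Tpx2, which starts microtubules at the spindle, was at 0.870, 0.984 and 1.48 FPKM with PBS and 0.638, 0.736 and 1.13 FPKM with DMOG (-0.29 ± 0.10, limma adjusted p 0.189). Ccnb1 was at 0.745, 1.16 and 1.69 against 0.432, 0.685 and 1.54 FPKM (-0.32 ± 0.17), and Cdk1 at 0.629, 1.29 and 2.13 against 0.825, 1.07 and 1.52 FPKM (-0.13 ± 0.17). Mki67 was at 0.351, 0.558 and 0.744 against 0.189, 0.337 and 0.918 FPKM (-0.24 ± 0.15), and Top2a at 0.897, 1.36 and 1.95 against 0.571, 0.953 and 2.17 FPKM (-0.25 ± 0.19). In these 5 genes DMOG replicate 3 was the highest DMOG library, and the groups overlapped.

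Ccne2 was the S phase gene with the lowest adjusted p, at 2.23, 2.73 and 3.07 FPKM with PBS and 3.00, 3.30 and 3.61 FPKM with DMOG (0.25 ± 0.07, limma adjusted p 0.0794). All 6 DMOG libraries lay above the PBS mean. Ccne1 was at 2.13, 2.22 and 3.05 against 1.88, 2.24 and 2.56 FPKM (-0.06 ± 0.08), Mcm2 at 3.89, 4.15 and 5.03 against 3.01, 3.97 and 5.65 FPKM (-0.10 ± 0.11), and Pcna at 61.4, 73.7 and 82.8 against 68.5, 74.8 and 78.5 FPKM (0.01 ± 0.06). Ccnd1 was at 20.4, 22.2 and 24.9 against 17.2, 23.1 and 24.01 FPKM (-0.03 ± 0.10). The DMOG values of these 4 lay around those of PBS.

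The phase balance of retina RNA was 1.136, 1.333 and 1.421 in the PBS libraries, 1.320, 1.495 and 1.557 under DMOG and 1.251, 1.307 and 1.369 under roxadustat. With DMOG the mean was higher by 0.157 and 5 of 6 libraries exceeded the highest PBS library, while with roxadustat the mean differed by -0.01. The DMOG difference turned to -0.098 over members with a mean of at least 5 FPKM, which left Ccna2 and Bub1b for mitosis. In that version PBS replicate 5 was at 1.768, against 0.497 to 0.872 in the other PBS libraries. The group medians of that version were 0.743 with PBS and 0.877 with DMOG, in the direction of the main version. Over the other S phase and mitosis genes the difference was 0.0379. Relative depth, read from the steps between low values, was 0.821 to 0.903 in the PBS libraries and 0.965 to 1.28 in the DMOG libraries, with no overlap. Its part in these low values was not tested.

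Roxadustat against PBS in retina RNA called 0 of 36 members, where 2.34% of all genes were called (1.69% higher, 0.653% lower). At an unadjusted p under 0.05 limma had 4 members higher (Ccnd1, Ccne2, Plk1 and Ube2c) and 0 lower, against 8.06% and 9.42% of all genes. No member's groups were free of overlap, as for 1.44% of all genes on the higher and 0.494% on the lower side. Both phases lay mostly above 0, with 13 of 14 S phase genes (median 0.09) and 17 of 21 mitosis genes (median 0.10), against 49.6% of all genes. Ccnd1, which couples growth signals to the retinoblastoma protein, had the lowest adjusted p. It was at 20.4, 22.2 and 24.9 FPKM with PBS and 23.2, 26.8 and 34.6 FPKM with roxadustat, 6 of 6 libraries above the PBS mean (0.31 ± 0.10, limma adjusted p 0.0936).

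The remaining markers overlapped PBS. Mki67 was at 0.461, 0.597 and 0.863 FPKM with roxadustat (0.10 ± 0.15), Top2a at 1.20, 1.66 and 2.36 FPKM (0.20 ± 0.19), Ccnb1 at 0.944, 1.33 and 1.69 FPKM (0.13 ± 0.17) and Cdk1 at 0.980, 1.46 and 1.81 FPKM (0.10 ± 0.17). Mcm2 was at 3.35, 4.30 and 4.77 FPKM (-0.02 ± 0.11), Ccne1 at 2.06, 2.47 and 2.56 FPKM (0.03 ± 0.08) and Pcna at 72.6, 76.8 and 89.3 FPKM (0.09 ± 0.06).

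Plk1 was the only member called between the drugs in retina RNA, higher with roxadustat than with DMOG, where 1.31% of all genes were called (0.98% higher, 0.334% lower). Plk1, polo-like kinase 1, acts at centrosomes, kinetochores and the cleavage furrow. It was at 0.902, 0.946 and 1.12 FPKM with PBS, 0.660, 0.861 and 0.956 FPKM under DMOG and 1.01, 1.19 and 1.29 FPKM under roxadustat. All roxadustat libraries lay above all DMOG libraries, as for 1.2% of all genes (the reverse held for 0.755%), and the PBS libraries overlapped both. The log2 fold change was 0.34 ± 0.08 (SE, n = 6 per group; limma adjusted p 0.0243), against -0.16 ± 0.08 and 0.18 ± 0.08 for DMOG and roxadustat against PBS. The call was lost with equal FPKM totals (limma adjusted p 0.0504) and in 6 of 18 fits that left out a library, those without DMOG replicate 4, 5 or 6 or roxadustat replicate 2, 3 or 4 (limma adjusted p up to 0.0748).

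The other mitosis genes mostly had the same sign: 20 of 21 were above 0 between the drugs (median 0.26), against 45.1% of all genes. The S phase genes had a median of 0.07. At an unadjusted p under 0.05 limma had 10 members higher, 9 of them of mitosis and the other Ccnd1, and 0 lower, against 5.82% and 5.09% of all genes. Tpx2, at 1.05, 1.16 and 1.24 FPKM with roxadustat, differed from DMOG by 0.37 ± 0.10 (limma adjusted p 0.083) and was called without PBS replicate 1 or DMOG replicate 3. Ube2c, the ubiquitin-conjugating enzyme of the anaphase-promoting complex, was at 0.722, 1.36 and 1.76 FPKM with DMOG and 1.17, 2.14 and 3.07 FPKM with roxadustat (0.56 ± 0.19, limma adjusted p 0.215). Over members with a mean of at least 5 FPKM only Ccna2 and Bub1b were left of mitosis, with a median of 0.0014. The relative depth of the roxadustat libraries overlapped that of the DMOG libraries.

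The DMOG response of 3 mitosis genes differed between retina RNA and liver RNA. The log2 fold change in retina RNA minus that in liver RNA was -0.69 ± 0.22 for Ccnb1, -0.54 ± 0.16 for Prc1 and -0.56 ± 0.16 for Tpx2 (SE; limma adjusted p 0.0291, 0.0214 and 0.0185 over 11101 genes). With 3 of 36 members called, the share was below the 15.9% of all genes. In retina RNA 5 of 6 DMOG libraries lay below the PBS mean for each gene, and in liver RNA 6, 6 and 5 of 6 lay above it. With equal FPKM totals none of the 3 passed (limma adjusted p 0.0593, 0.0701 and 0.0668), and without DMOG replicate 5 of liver RNA 8 members were called, where 28.8% of all genes were. For roxadustat limma called 0 members, where 2.24% of all genes differed. Among the members Cdt1 had the lowest adjusted p (0.52 ± 0.15, limma adjusted p 0.0521).

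Other genes of replication and mitosis were taken from lists chosen by name, again with earlier results of these data known. In liver RNA with DMOG, where 8.26% of all genes were called higher and 11.7% lower, 1 of 38 other S phase genes rose and 1 fell. Usp1, a deubiquitinase that acts on Pcna, rose from 10.7, 13.9 and 15.5 FPKM to 12.9, 20.4 and 23.2 FPKM (0.53 ± 0.13, limma adjusted p 0.00691), and Tk1, the thymidine kinase of the salvage route, fell from 38.7, 43.03 and 47.1 FPKM to 24.1, 30.4 and 40.9 FPKM (-0.45 ± 0.10, limma adjusted p 0.00461). Of 44 other mitosis genes Hmmr, a spindle protein, rose (0.39 ± 0.12, limma adjusted p 0.0281), and 40 were above 0 (median 0.14, 0.07 without DMOG replicate 3 and 0.18 without DMOG replicate 5). Over all genes 52.2% were above 0 with DMOG. The calls of Usp1 and Tk1 held with any 1 library left out (without DMOG replicate 5, 0.64 and -0.53), and that of Hmmr was lost without PBS replicate 3 or 6 or DMOG replicate 3 or 4 (limma adjusted p up to 0.0704). With roxadustat limma called 0 of either list, where 2.16% of all genes were called higher and 2.02% lower. At an unadjusted p under 0.05 limma had 1 S phase gene higher and 5 lower, and 0 mitosis genes. Over all genes 8.22% were higher and 10.7% lower at that threshold. Above 0 were 39 of 44 mitosis genes (median 0.11) and 10 of 38 S phase genes (median -0.10), against 49.8% of all genes.

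Genes that control the cycle were read in the same way. Of 28 in liver RNA, 2 rose and 2 fell with DMOG, and 1 rose and 2 fell with roxadustat, beside the shares of all genes just given. Without DMOG replicate 5, 7 were called higher and 3 lower with DMOG, where 17.3% of all genes were called higher and 2295 of 12657 lower. Cdkn1a, the kinase inhibitor p21, was at 2.63, 3.36 and 4.55 FPKM with PBS, 2.97, 14.6 and 16.99 FPKM under DMOG, where replicate 5 was the lowest, and 13.8, 15.9 and 18.2 FPKM under roxadustat (1.65 ± 0.28 and 2.07 ± 0.28, limma adjusted p 0.0012 and 5.55e-04). Without replicate 5 its DMOG value was 2.01. Cdk6, a G1 kinase, fell from 10.4, 11.5 and 14.2 FPKM to 5.65, 6.74 and 11.04 FPKM with DMOG and 5.89, 7.20 and 9.56 FPKM with roxadustat (-0.69 ± 0.15 and -0.64 ± 0.15, limma adjusted p 0.00445 and 0.02). Btg2, an antiproliferative gene, rose with DMOG (1.41 ± 0.27, limma adjusted p 0.00219), and Mycn, a growth-promoting transcription factor, fell (-0.44 ± 0.13, limma adjusted p 0.0238). Wee1, which holds Cdk1 inactive, fell with roxadustat (-0.30 ± 0.08, limma adjusted p 0.033). Left-out libraries ended 3 of these calls: Mycn in 6 of 18 fits (without PBS replicate 2, 3 or 6 or DMOG replicate 2, 3 or 4), Cdk6 with roxadustat in 4 (without PBS replicate 3 or roxadustat replicate 1, 2 or 3) and Wee1 in 8 (without PBS replicate 1, 2, 3 or 4 or roxadustat replicate 2, 3, 4 or 5), with limma adjusted p up to 0.0596, 0.0536 and 0.0825.

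In retina RNA 1 gene of these lists was called with each drug against PBS, where 1.07% of all genes were called with DMOG and 2.34% with roxadustat. Racgap1, which forms the centralspindlin complex with Kif23, fell with DMOG from 5.76, 6.46 and 6.99 FPKM to 4.40, 5.05 and 5.48 FPKM without overlap (-0.32 ± 0.06, limma adjusted p 0.0183). Groups free of overlap on the lower side were also found for 1 of 33 other S phase genes, and for 0.639% of all genes. Ckap2, a microtubule-associated protein, rose with roxadustat from 2.49, 2.79 and 3.19 FPKM to 2.85, 3.75 and 4.50 FPKM (0.35 ± 0.09, limma adjusted p 0.0429). The call of Racgap1 was lost without DMOG replicate 2 or 4 (limma adjusted p up to 0.0622), and that of Ckap2 in 12 of 18 fits that left out a library, all except those without PBS replicate 5 or 6, DMOG replicate 1, 4 or 5 or roxadustat replicate 4 (limma adjusted p up to 0.109). Of the 33 other S phase genes and 26 control genes tested, limma called 0 with either drug, with 1 and 3 higher and 1 and 3 lower at an unadjusted p under 0.05 for DMOG, and 8 and 8 higher and 1 and 2 lower for roxadustat. The 29 other mitosis genes tested had 2 higher and 2 lower for DMOG, and 7 higher and 1 lower for roxadustat. Over all genes the shares at this threshold were 6.5% higher and 7.23% lower for DMOG, and 8.06% and 9.42% for roxadustat.

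Summed markers of the cells that could carry these transcripts overlapped PBS in liver RNA, while single markers moved. With DMOG the log2 fold change was above 0 in 10 of 10 (median 0.23) erythroid, 8 of 8 (median 0.26) neutrophil, 6 of 6 (median 0.36) macrophage, 5 of 5 (median 0.07) B lymphocyte, 5 of 6 (median 0.12) endothelial and 3 of 7 (median -0.10) hepatocyte genes tested. Fgb, a fibrinogen chain made by hepatocytes (0.64 ± 0.18, limma adjusted p 0.0212), and Pecam1, an endothelial adhesion molecule (0.39 ± 0.12, limma adjusted p 0.0261), rose, and Hes1, a Notch target listed with retinal progenitors, fell (-0.55 ± 0.12, limma adjusted p 0.0046). The call of Fgb was lost without DMOG replicate 4 or 6 and that of Pecam1 without PBS replicate 2, 4 or 6 or DMOG replicate 1, 2 or 6. A fit without DMOG replicate 5 called 5 of 6 macrophage genes higher (median 0.55), 3 of 6 endothelial and 2 of 7 hepatocyte ones. It called 1 of 10 erythroid, 1 of 8 neutrophil and 0 of 5 B lymphocyte genes higher, where 17.3% of all genes were. With roxadustat limma called 0 of these markers, and above 0 were 7 of 10 (median 0.03) erythroid, 4 of 8 (median 0.04) neutrophil, 6 of 6 (median 0.24) macrophage, 1 of 5 (median -0.04) B lymphocyte, 3 of 6 (median -0.0032) endothelial and 2 of 7 (median -0.12) hepatocyte genes.

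The sums are given by cell type. The 8 hepatocyte genes summed to 33360 to 41174 FPKM in the PBS group, 25932 to 45760 under DMOG and 28100 to 37956 under roxadustat, with Ahsg listed at 0 in every library. The erythroid genes, 10 found of 12 listed, summed to 222 to 341 FPKM in the PBS group, 218 to 519 under DMOG and 166 to 386 under roxadustat. Genes of neutrophil precursors summed to 846 to 1965 FPKM in the PBS group, 925 to 2658 under DMOG and 886 to 1882 under roxadustat, those of macrophages to 300 to 530 FPKM in the PBS group, 217 to 663 under DMOG and 247 to 523 under roxadustat, and those of B lymphocytes to 21.1 to 37.9 FPKM in the PBS group, 21.5 to 37.7 under DMOG and 18.8 to 40.4 under roxadustat. Endothelial genes summed to 81.7 to 94.4 FPKM in the PBS group, 80.4 to 120 under DMOG and 83.03 to 99.2 under roxadustat. In retina RNA the erythroid sum was higher in every treated library, at 43.2 to 47.7 FPKM in the PBS group, 56.6 to 69.9 under DMOG and 55.9 to 80.2 under roxadustat. Most of it was Tfrc, the transferrin receptor that takes up iron (40.5 to 45.5, 52.8 to 66.3 and 52.9 to 75.3 FPKM), which rose with both drugs (0.42 ± 0.08 and 0.51 ± 0.08, limma adjusted p 0.018 and 0.00127). The DMOG call was lost without DMOG replicate 4 or 5. S100a8, a neutrophil gene at 0 to 0.377 FPKM with PBS and 0.212 to 2.48 FPKM with roxadustat, rose with roxadustat (1.25 ± 0.28, limma adjusted p 0.0189), and this call was lost without roxadustat replicate 2 or 3. All PBS values of S100a8 lay under the mean of 0.5 FPKM that a test required. It was thus tested only because of higher values in treated libraries. Genes of retinal progenitors and Mueller glia summed to 613 to 924 FPKM in the PBS group, 731 to 908 under DMOG and 609 to 804 under roxadustat. The part of these cells in the results was not tested.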

How the data were processed

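RNA was extracted with RNeasy and libraries were made with a kit that marks strand after depletion of ribosomal RNA, per the labels' protocols. The authors deposited FPKM values per gene and library in 1 table per tissue label; bcl2fastq 1.8.3, TopHat2 2, Cuffdiff 2.2.1 and the build mm9 are named in the submitters' processing notes. Scaling, annotation and strand use in counting are not given in the sources used here. Of the members 11 overlap a protein-coding gene on the other strand and 4 have named pseudogenes (Pcna, Tyms, Ccnb1 and Ccnb2), so part of their reads may be shared.

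Libraries summed to 542785 to 617853 FPKM under the liver label and 433021 to 540324 FPKM under the retina label, with no identical pair; read depth is unknown, so no counting intervals are given. A row of totals was dropped. Genes averaging 0.5 FPKM or more across all 18 libraries under a label were fitted with limma 3.58.1 (R 4.3.3) on log2(FPKM + 0.5), with 3 group means, a mean trend and 15 residual degrees of freedom, two-sided, with Benjamini-Hochberg adjustment over all genes tested and a threshold of 0.05. The difference of a drug's response between the tables was fitted over all 36 libraries. The method was tested on simulated data. Relative depth came from the spacing of low values. Promoters were those of RefSeq on GRCm38.p6, a build other than that of the files, used for letters only.

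The members and lists were chosen with earlier results of these data known. Values were to be given for called members (up to 8 per comparison and direction) and always for Mki67, Top2a, Ccnd1, Ccnb1, Cdk1, Mcm2, Pcna and Ccne1, and for up to 4 called genes of each other list; further members were named after their values were seen. Alternatives were other pseudocounts, filters, scalings and limma settings, a replicate block and leaving out each library. The alternatives for the phase balance were added after seeing the data.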

Additional observations from a re-analysis of the deposited data

Results flagged for a closer look

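Of 90 groups of 6 libraries examined, 4 held a library far from the others, where chance gives about 1 in 20 groups. In retina RNA, Mki67 was at 0.918 FPKM in DMOG replicate 3, against 0.189 to 0.415 FPKM in the other DMOG libraries. Tpx2 was at 1.13 FPKM in the same library, against 0.638 to 0.811 FPKM. Ccne1 was at 3.05 FPKM in PBS replicate 1 of retina RNA, against 2.13 to 2.35 FPKM. In liver RNA, Prc1 was at 12.1 FPKM in roxadustat replicate 4, against 14.4 to 15.4 FPKM in the others.

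The response to DMOG differed between retina RNA and liver RNA by a limma interaction test for Ccnb1 (-0.69), Prc1 (-0.54) and Tpx2 (-0.56). These 3 of 36 members were a smaller share than the 15.9% of all genes called. With equal FPKM totals none of the 3 passed (limma adjusted p 0.0593, 0.0701 and 0.0668). The phase balance moved with DMOG by 0.157 in retina RNA and by -0.138 in liver RNA. This last difference between the tissues was not tested.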

How the results depend on the processing

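Over settings other than leaving out a library, 286 counts of called members, phase medians or balance differences stayed near their main value, and 14 moved. Of the values of single genes, 492 stayed called or uncalled, 6 lost a call and 1 gained a call. None reversed a called value. Counts of called members moved as follows. Roxadustat against DMOG in retina RNA called 0 members higher with a filter at 5 FPKM (where Plk1 is not tested) or equal totals and 2 (Plk1 and Tpx2) with only these groups fitted. Roxadustat against PBS in liver RNA called 0 lower with no filter. The DMOG response between tissues called 0 lower with the filter at 5 FPKM or equal totals, and the roxadustat response called 1 higher with a pseudocount of 1. The filter at 5 FPKM, which left few mitosis genes in retina RNA, gave mitosis medians of 0.14 for DMOG against PBS and 0.0014 for roxadustat against DMOG. It gave a phase balance difference for DMOG of -0.098, where PBS replicate 5 (1.768) lay far above the other PBS libraries (0.497 to 0.872). The group medians went the other way, at 0.743 with PBS and 0.877 with DMOG. The other S phase and mitosis genes gave a difference of 0.038. The cause of the other moves was not tested, and the share of all genes called was not computed for every setting.

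Leaving out each library gave 0 to 2 members higher for roxadustat against DMOG in retina RNA. With all libraries 0.98% of all genes were called higher there. In liver RNA it gave 0 to 5 higher for DMOG against PBS. The 5 came without DMOG replicate 5, where 17.3% of all genes were called higher. It gave 0 to 1 lower for roxadustat against PBS and 0 to 1 lower for roxadustat against DMOG. With all libraries 2.02% and 1.14% of all genes were called lower in these. The response between tissues gave 2 to 8 lower for DMOG and 0 to 1 higher for roxadustat. The 8 came without DMOG replicate 5 of liver RNA, where 28.8% of all genes were called. With all libraries 15.9% of all genes were called for DMOG and 2.24% for roxadustat.

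Libraries with the same number were not shown to be paired: their deviations correlated at over 0.1 in 7 of 18 pairs in either tissue, and 4 of 18 matched their own number best. With a replicate block, DMOG against PBS called 1 member higher in retina RNA (Ccne2) and 1 in liver RNA (Ccnb1), and roxadustat against DMOG called 0 in retina RNA (Plk1, limma adjusted p 0.0817). The shares of all genes called with the block were not computed. Without the block DMOG called 0.37% of all genes higher in retina RNA and 8.26% in liver RNA.

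FPKM without read counts limit what can be said of genes near 1 FPKM, which holds for most mitosis genes in retina RNA.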
